A study of Mus musculus with 16 samples.

Results

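The genes described here are 32 genes of the endoplasmic reticulum (ER) that fold and export secreted proteins or carry the unfolded protein response, measured in mouse ear skin. They were chosen by name and were found as 32 of the 48440 genes of the count table. By role they were 15 chaperones and folding enzymes, 7 stress sensors and transcription factors, 2 feedback regulators, 5 genes of ER-associated degradation and 3 of the translocon. B6 mice had received a high-fat diet (HFD) for 8 weeks or a normal diet (ND), and ears were either left untreated or treated with PMA. PMA, a phorbol ester, switches on protein kinase C and inflames skin. It was applied at 200 ng per ear, and the ears were taken 24 hours later. RNA of whole ear skin was sequenced from 4 mice per group. The groups were PMA-treated ears of HFD mice (HFD_PMA), PMA-treated ears of ND mice (ND_PMA), untreated ears of HFD mice (HFD_cont) and untreated ears of ND mice (ND_cont). The labels give neither age nor sex, nor the length of the normal diet, nor whether untreated ears received a solvent.

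The ER lumen folds secreted and membrane proteins with the aid of chaperones such as BiP (Hspa5), lectin chaperones that bind sugar chains, and enzymes that form disulfide bonds. When unfolded proteins accumulate, the membrane sensors IRE1, PERK and ATF6 start the unfolded protein response. IRE1 splices the Xbp1 transcript, PERK slows translation while favouring that of Atf4, and ATF6 is cleaved to a transcription factor. These factors act on chaperone genes, on genes that clear misfolded proteins and, under prolonged stress, on Ddit3, which encodes the death-promoting factor CHOP. Splicing, phosphorylation and cleavage are not visible in counts per gene, so the values below are transcript levels alone.

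Library totals ran from 7739487 to 15571389 counts, and a gene at 1 CPM (the usual unit of counts scaled to library size, here on totals adjusted by TMM) had 7.98 to 15.5 counts in a library. Within a group, pairs of libraries correlated at a Pearson r of 0.954 to 0.977 over log2 CPM, and every pair differed by more than sampling noise (lowest chi-square over its degrees of freedom 9.46). Of 17604 genes with enough counts to be tested, 31 were among the 32, and Ern2 had 0 counts in all 16 libraries. A count of 0 allows up to 3 counts, or 0.193 to 0.376 CPM depending on the library, counting error only. Library IDs in the labels begin with RHS in all ND_cont libraries and in HFD_cont replicate 1, and with RHP in the other 11. The labels do not explain the prefix. In ND mice it cannot be told apart from PMA. For the 32 genes, values with the prefix as a covariate or within 1 prefix stand beside the results it moves. For genes outside the 32 no such values are given, so whether the prefix moves their calls is not shown. Keratinocyte genes marked the tissue as skin: the summed level of 6 basal keratinocyte markers was 20076 to 23819 CPM in HFD_PMA, 18678 to 21647 in ND_PMA, 17737 to 18092 in HFD_cont and 15324 to 19202 in ND_cont.

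Per transcript length, folding enzymes stood at the top and the sensor genes near the bottom in every group. P4hb, the protein disulfide isomerase that is also a subunit of collagen prolyl 4-hydroxylase, was the highest, at 421 CPM per kb in HFD_PMA, 401 in ND_PMA, 226 in HFD_cont and 202 in ND_cont. The disulfide isomerase Pdia3, partner of the lectin chaperones, came next, with 349, 373, 201 and 181 CPM per kb in the same order of groups. Hspa5 was in the third place in both PMA-treated groups (207 and 217 CPM per kb) and in the fifth place in both untreated groups (109 and 108). In untreated skin Herpud1, a membrane protein of the degradation complex, and Xbp1 stood above it. The sensor genes Atf6, Eif2ak3 and Ern1 lay between 2.74 and 6.41 CPM per kb in all groups. Ranges of neighbours in this order overlapped in 24 of 31 pairs in HFD_PMA, 25 in ND_PMA, 28 in HFD_cont and 24 in ND_cont, so most adjacent places were not separated beyond the spread of the 4 libraries. The median coefficient of variation over the measured genes was 11.7% in HFD_PMA, 12.4% in ND_PMA, 10.7% in HFD_cont and 12.2% in ND_cont. Sec61b varied most in both HFD groups (61.5% in HFD_PMA and 49.3% in HFD_cont).

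The first comparison asked how PMA altered these genes 24 hours after it was applied, in mice on either diet. Chaperones and folding enzymes were higher in PMA-treated skin, while most sensor, feedback and degradation genes did not pass the test. In HFD mice 17 of the 31 tested genes rose, where 7.34% of all tested genes rose, and 0 fell, where 4.6% of all genes fell. In ND mice 18 rose, where 8.96% of all genes rose, and 0 fell, where 3.99% of all genes fell. These calls are those of edgeR's quasi-likelihood test at a Benjamini-Hochberg (BH) adjusted p below 0.05 over all 17604 genes, which is the source of every adjusted p below unless DESeq2 is named. Log2 fold changes are given ± SE and levels ± SD (n = 4 libraries). At an unadjusted p below 0.05, 0 were lower in HFD mice and 1 (Trib3) in ND mice, and DESeq2 called 19 higher in HFD and 17 in ND mice and 0 lower. In both diets 16 genes rose, in either diet 19, and 12 tested genes rose in neither. The median log2 fold change was 0.50 in HFD mice, against -0.02 over all tested genes, and 0.58 in ND mice, against 0.00129. Lowest PMA-treated values lay above the highest untreated ones for 19 genes in HFD mice (10.8% of all genes did so) and 16 in ND mice (10.6%).

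Together the 32 genes took 0.724% to 0.877% of all counts in PMA-treated libraries and 0.482% to 0.553% in untreated ones. Their summed level was 8211 ± 702 CPM in HFD_PMA and 8287 ± 358 CPM in ND_PMA, against 5164 ± 347 CPM in HFD_cont and 4904 ± 146 CPM in ND_cont (SD, n = 4 each). Most of this difference was carried by the chaperones, at 5704 ± 565 and 5770.0 ± 352 CPM in HFD_PMA and ND_PMA, against 3251 ± 275 and 2985 ± 117 CPM in HFD_cont and ND_cont. Sensors and transcription factors, mostly Xbp1, summed to 696 ± 18.96 and 685 ± 45.5 CPM in HFD_PMA and ND_PMA. In HFD_cont and ND_cont they summed to 576 ± 22.8 and 569 ± 45.9 CPM. The lowest PMA-treated library was at 640.5 CPM and the highest untreated one at 622 CPM. For ER-associated degradation the sums were 803 ± 63.5 and 808 ± 42.4 CPM in HFD_PMA and ND_PMA, against 669 ± 33.1 and 679 ± 18.9 CPM in HFD_cont and ND_cont, also without overlap. The translocon genes reached 891 ± 91.9 and 894 ± 40.2 CPM in HFD_PMA and ND_PMA, against 559 ± 41.7 and 545 ± 19.7 CPM in HFD_cont and ND_cont. The feedback regulators summed to 117 ± 9.18 and 130.1 ± 14.7 CPM in HFD_PMA and ND_PMA, and 109.9 ± 8.18 and 127 ± 11.1 CPM in HFD_cont and ND_cont. P4hb, Pdia3 and Hspa5 made up 37.3% to 40.3% of the summed level in PMA-treated libraries and 31.1% to 34.8% in untreated ones. In whole skin, a change in cell make-up and a change of RNA per cell cannot be told apart.

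**Figure D1:**
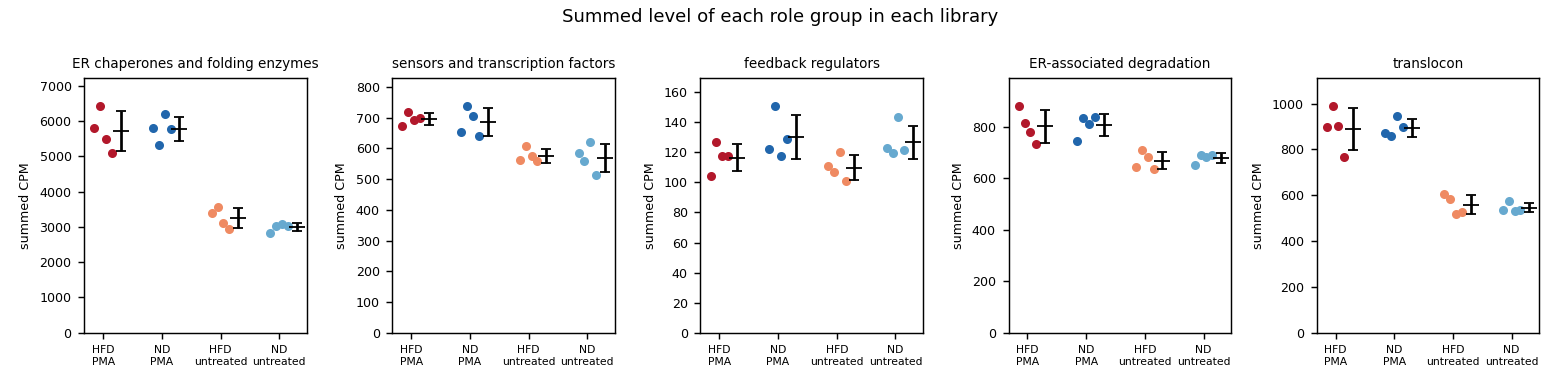
Summed CPM of the genes of each role (vertical axis, linear, from 0) in each library (points) of HFD_PMA, ND_PMA, HFD_cont and ND_cont, with mean and SD of 4 libraries in black. All PMA-treated libraries lie above all untreated ones in every role but the feedback regulators, by a narrow margin for the sensors and transcription factors and for ER-associated degradation.

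Of the 15 chaperones and folding enzymes 13 rose in HFD mice (median log2 fold change 0.80) and 13 in ND mice (1.04). Hspa5 encodes BiP, the Hsp70 chaperone of the ER lumen (chromosome 2, 34771970 to 34777547, GRCm38), and was measured at 922, 1042, 781 and 751 CPM in HFD_PMA and 965, 891, 1009 and 814 CPM in ND_PMA, against 508, 518, 419.7 and 402 CPM in HFD_cont and 430.4, 434, 471 and 495 CPM in ND_cont. Every PMA-treated library exceeded every untreated one, and the diets overlapped within each treatment (log2 fold change 0.92 ± 0.12 in HFD mice, adjusted p = 5.86e-05, and 1.01 ± 0.12 in ND mice, adjusted p = 1.2e-05). Sdf2l1, a partner of BiP and its co-chaperone Dnajb11 (chromosome 16, 17130138 to 17132383), had the largest log2 fold change in both diets and a low level, 36.97, 54.1, 61.9 and 39.9 CPM in HFD_PMA and 48.7, 58.7, 42.3 and 34.02 CPM in ND_PMA, against 17.7, 18.5, 20.3 and 17.7 CPM in HFD_cont and 14.6, 19.01, 13.2 and 10.7 CPM in ND_cont. Its PMA-treated libraries were again all above the untreated ones (log2 fold change 1.38 ± 0.21 in HFD mice, adjusted p = 0.000236, and 1.68 ± 0.21 in ND mice, adjusted p = 2.19e-05). Dnajb11 itself (chromosome 16, 22857845 to 22879634) stood at 162, 158, 141 and 135 CPM in HFD_PMA and 162, 166, 158 and 170.2 CPM in ND_PMA, against 91.7, 103, 96.5 and 73.95 CPM in HFD_cont and 73.7, 83.1, 84.97 and 66.99 CPM in ND_cont. Its groups separated by treatment without overlap (log2 fold change 0.71 ± 0.12 in HFD mice, adjusted p = 0.000535, and 1.09 ± 0.12 in ND mice, adjusted p = 4.56e-06). Hyou1, a nucleotide exchange factor of BiP (chromosome 9, 44379490 to 44392369), had 42.3, 53.7, 44.9 and 44.3 CPM in HFD_PMA and 47.1, 63.9, 65.5 and 46.7 CPM in ND_PMA, against 29.9, 30.4, 24.8 and 38.4 CPM in HFD_cont and 22.5, 23.8, 38.4 and 23.8 CPM in ND_cont. PMA-treated values were above all untreated ones, and ND_cont replicate 3 was the highest of its group (log2 fold change 0.58 ± 0.19 in HFD mice, adjusted p = 0.0489, and 1.04 ± 0.19 in ND mice, adjusted p = 0.000884). The call in HFD mice was lost under 16 of 19 other settings, with adjusted p up to 0.19, and the call in ND mice with the ID prefix as covariate (0.195).

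Calr encodes calreticulin, a lectin chaperone of the lumen (chromosome 8, 84841850 to 84846934), and reached 312, 363, 298 and 271 CPM in HFD_PMA and 284, 295, 305 and 287 CPM in ND_PMA, against 156, 157, 142 and 124 CPM in HFD_cont and 90.7, 94.3, 111 and 99.3 CPM in ND_cont. Treatment groups did not overlap, and among untreated ears all HFD libraries were above all ND libraries (log2 fold change 1.10 ± 0.11 in HFD mice, adjusted p = 3.48e-06, and 1.57 ± 0.11 in ND mice, adjusted p = 4.02e-08). Its membrane-bound relative calnexin, Canx, averaged 663 ± 45.4 CPM in HFD_PMA and 638 ± 148 CPM in ND_PMA, against 470.0 ± 19.3 CPM in HFD_cont and 445 ± 19.5 CPM in ND_cont. In ND mice the groups overlapped through ND_PMA replicate 2, at 416 CPM (log2 fold change 0.50 ± 0.13 in HFD mice, adjusted p = 0.0181, and 0.52 ± 0.13 in ND mice, adjusted p = 0.0125). That call was lost with the ID prefix as covariate (adjusted p = 0.397) and with the compared groups fitted alone (0.0829). The call in HFD mice was lost without HFD_PMA replicate 2 (0.0577), without HFD_cont replicate 3 (0.0535), without HFD_cont replicate 4 (0.0504) and within RHP libraries (0.0684). Hsp90b1, the Hsp90 chaperone of the ER (chromosome 10, 86690209 to 86705509), was found at 361, 388, 321 and 307 CPM in HFD_PMA and 357, 235, 352 and 345 CPM in ND_PMA, against 207, 219, 188 and 179.7 CPM in HFD_cont and 164, 176, 181 and 217 CPM in ND_cont. ND_PMA replicate 2 was the lowest PMA-treated library here too, yet above all untreated ones (log2 fold change 0.80 ± 0.13 in HFD mice, adjusted p = 0.000535, and 0.81 ± 0.13 in ND mice, adjusted p = 0.000341). With the ID prefix as covariate the ND call was lost (adjusted p = 0.0765). An opposite-strand transcript shares 10.3% of its exon bases and had 446 counts over all libraries, against 47117 for Hsp90b1.

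P4hb, Pdia3, Pdia4 and Pdia6, which form or rearrange disulfide bonds, all rose in both diets. P4hb (chromosome 11, 120560298 to 120573253) had 1326, 1409.7, 1114 and 971 CPM in HFD_PMA and 971, 1246, 1248 and 1126 CPM in ND_PMA, against 687, 721, 623 and 556 CPM in HFD_cont and 514, 572, 647 and 576 CPM in ND_cont. Treatment groups were separate, and the diets overlapped (log2 fold change 0.90 ± 0.13 in HFD mice, adjusted p = 0.000127, and 0.99 ± 0.13 in ND mice, adjusted p = 2.48e-05). Pdia3 (chromosome 2, 121413775 to 121438687) followed with 1094, 1152, 1098 and 1042 CPM in HFD_PMA and 1239.5, 934, 1272 and 1237 CPM in ND_PMA, against 655, 669.5, 598 and 603 CPM in HFD_cont and 521, 591, 571 and 591 CPM in ND_cont. Here too no PMA-treated library was as low as an untreated one (log2 fold change 0.80 ± 0.10 in HFD mice, adjusted p = 5.14e-05, and 1.04 ± 0.10 in ND mice, adjusted p = 1.35e-06). Pdia4, with several thioredoxin domains (chromosome 6, 47796141 to 47813430), was at 221, 270.0, 244 and 172 CPM in HFD_PMA and 243, 259, 253 and 265 CPM in ND_PMA, against 158, 134, 96.5 and 113 CPM in HFD_cont and 119, 127, 113 and 127 CPM in ND_cont. All PMA-treated libraries were above all untreated ones, with HFD_PMA replicate 4 the closest to them (log2 fold change 0.86 ± 0.14 in HFD mice, adjusted p = 0.000495, and 1.07 ± 0.14 in ND mice, adjusted p = 3.71e-05). Pdia6, which also attenuates IRE1 signalling (chromosome 12, 17266545 to 17284770), measured 391, 403, 364 and 299 CPM in HFD_PMA and 372, 452, 422 and 391 CPM in ND_PMA, against 173, 212, 176 and 143 CPM in HFD_cont and 168, 185, 179 and 156 CPM in ND_cont. PMA-treated and untreated libraries formed separate ranges (log2 fold change 1.05 ± 0.12 in HFD mice, adjusted p = 2.1e-05, and 1.25 ± 0.12 in ND mice, adjusted p = 1.35e-06). Creld2, an ER-resident protein with isomerase activity (chromosome 15, 88819646 to 88826683), had 79.7, 99.8, 90.3 and 91.03 CPM in HFD_PMA and 84.4, 90.1, 75.3 and 59.6 CPM in ND_PMA, against 57.1, 50.7, 52.8 and 38.3 CPM in HFD_cont and 46.7, 38.3, 36.2 and 42.1 CPM in ND_cont. Its treatment groups did not overlap, with ND_PMA replicate 4 the nearest to the untreated libraries (log2 fold change 0.86 ± 0.15 in HFD mice, adjusted p = 0.000796, and 0.92 ± 0.15 in ND mice, adjusted p = 0.000309).

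Manf encodes an ER protein that binds BiP and is secreted under stress (chromosome 9, 106838312 to 106891979), and its values were 47.8, 59.1, 48.2 and 56.3 CPM in HFD_PMA and 50.4, 47.9, 39.3 and 28.1 CPM in ND_PMA, against 44.4, 35.4, 34.5 and 32.4 CPM in HFD_cont and 20.2, 20.7, 15.96 and 16.4 CPM in ND_cont. In ND mice the groups were separate, and in HFD mice they were separate by a narrow margin (log2 fold change 0.53 ± 0.18 in HFD mice, adjusted p = 0.0583, and 1.18 ± 0.18 in ND mice, adjusted p = 0.00018). The gene rose in ND mice alone by edgeR, and DESeq2 called it in both diets. It shares 4.14% of its exon bases with Dcaf1 on the opposite strand, which had 6897 counts over all libraries against 6759 for Manf, so part of its counts is uncertain without strand. Dnajc3, a BiP co-chaperone that restrains PERK, averaged 162 ± 28.5 CPM in HFD_PMA and 153 ± 27.4 CPM in ND_PMA, against 115 ± 12.3 CPM in HFD_cont and 121 ± 13.8 CPM in ND_cont. It rose in HFD mice (log2 fold change 0.49 ± 0.15 in HFD mice, adjusted p = 0.0299, and 0.34 ± 0.14 in ND mice, adjusted p = 0.139), a call lost with the ID prefix as covariate (adjusted p = 0.0842), within RHP libraries (0.105), without HFD_PMA replicate 2 (0.159) and without HFD_cont replicates 1 (0.0882), 3 (0.0612) or 4 (0.095). Dnajb9, a co-chaperone that represses IRE1, passed in neither diet (log2 fold change 0.36 ± 0.16 in HFD mice, adjusted p = 0.179, and 0.35 ± 0.16 in ND mice, adjusted p = 0.175).

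**Figure D2:**
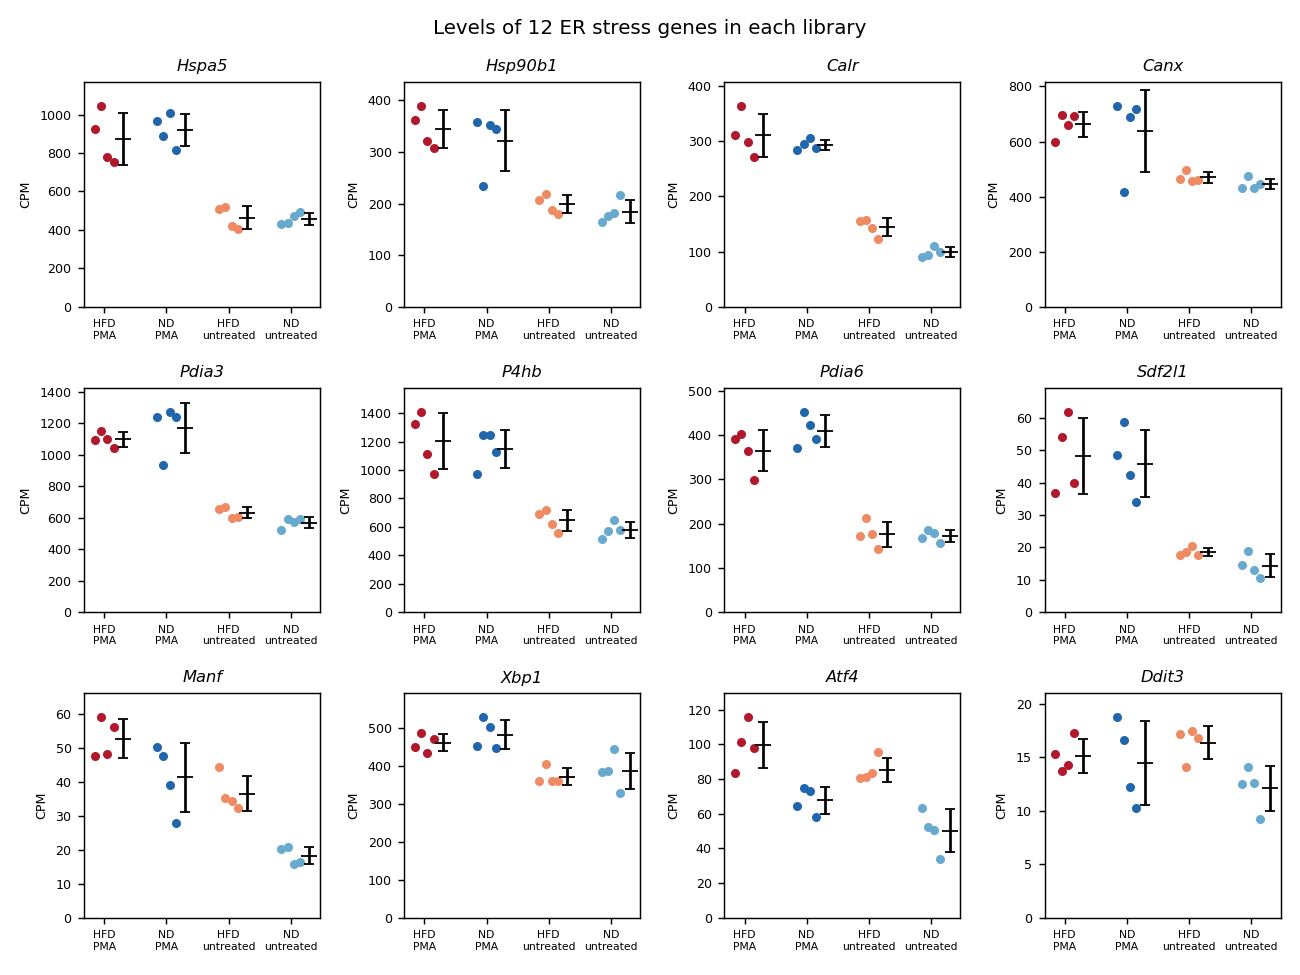
CPM (vertical axes, linear, from 0) of 12 of the genes in each library (points) of HFD_PMA, ND_PMA, HFD_cont and ND_cont, with mean and SD of 4 libraries in black. PMA-treated and untreated libraries form separate ranges for Hspa5, Hsp90b1, Calr, Pdia3, P4hb, Pdia6 and Sdf2l1, while Atf4 separates the diets and Ddit3 overlaps in all groups.

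Promoters of these genes were read for the letters of known stress elements, since 13 of the 15 chaperones rose in each diet. The ER stress element (ERSE) is CCAAT, 9 bases of any kind, then CCACG, and is bound by NF-Y and, under stress, by ATF6 and XBP1. Of 27 genes with an entry in the RefSeq promoter table (GRCm38.p6, 250 bases before to 50 after the annotated start), 8 held it on either strand (29.6%), against 39 of all 32851 promoters (0.119%). Hsp90b1 held 2 copies, and it was the 1 promoter of the whole table with 2 or more. The related ERSE-II, ATTGG, 1 base, CCACG, was in Dnajb11 and Herpud1 (7.41%), against 0.0365% of all promoters. The letters TGACG directly followed by TGG, a site of XBP1 and ATF6, were in 0 of 27, against 0.676%, and the ATF4 element TGATG, 1 base, AA was in Herpud1 and Trib3 (7.41%), against 3.97%. No 2 of these matches overlapped in a gene. A match is a description of letters and no proof of a bound site. The genes were chosen by name as part of this response, so a high share with its known elements was likely in advance. That share is no result on PMA or the diet. The ERSE matches are shown with both fixed blocks in capitals and the spacer in lower case, on the strand that reads CCAAT first.
Hspa5, -65 to -47 from the start: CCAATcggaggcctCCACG
Hsp90b1, -212 to -194: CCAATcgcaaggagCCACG
Hsp90b1, -107 to -89, opposite strand: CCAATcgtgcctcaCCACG
Calr, -162 to -144, opposite strand: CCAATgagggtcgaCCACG
Canx, -145 to -127: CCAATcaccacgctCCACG
Pdia6, -98 to -80: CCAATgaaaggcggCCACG
Creld2, -126 to -108, opposite strand: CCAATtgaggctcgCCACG
Dnajc3, -105 to -87: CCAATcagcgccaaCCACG
Syvn1, -44 to -26: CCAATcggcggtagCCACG
The 2 ERSE-II matches have 1 base between the blocks.
Herpud1, -52 to -42: ATTGGgCCACG
Dnajb11, 8 to 18: ATTGGcCCACG

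**Figure D3:**
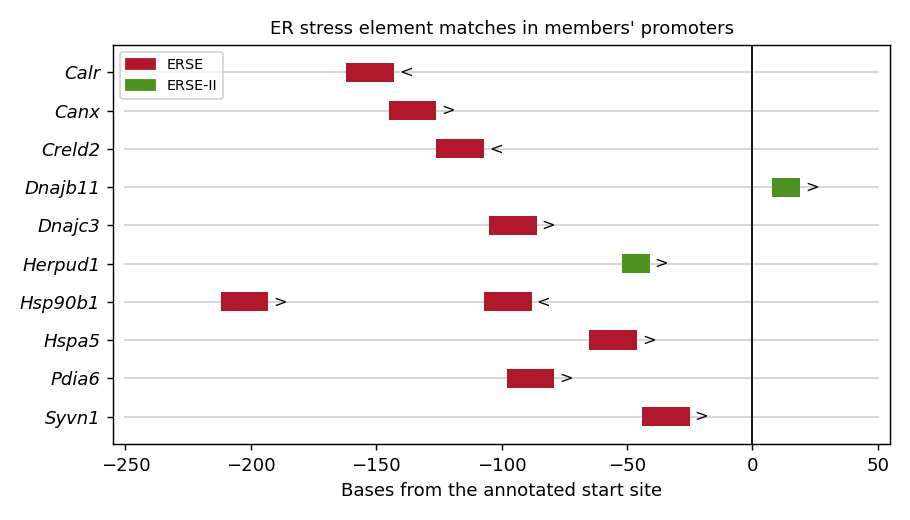
Positions of ERSE (red) and ERSE-II (green) matches in the promoters of 10 of the genes, in bases from the annotated start site (horizontal axis, vertical line at the start); > and < give the strand relative to the gene. All ERSE matches lie upstream of the start, and the Dnajb11 ERSE-II lies just after it.

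Of the 8 genes with an ERSE, 7 rose with PMA in HFD mice and 6 in ND mice, with median log2 fold changes of 0.83 and 0.87. Of the 19 with a promoter entry and no ERSE, 8 rose in HFD and 9 in ND mice, with medians of 0.36 and 0.40. The difference between these sets was not tested, and in it the element cannot be told apart from the role. All genes with an ERSE but Syvn1 are chaperones or folding enzymes, while those without it span all roles. Among chaperones without an ERSE, Dnajb11, Pdia3, Pdia4, P4hb and Sdf2l1 rose in both diets and Dnajb9 in neither. Genes without these letters include Sdf2l1, with the largest fold change, and Pdia3, Pdia4 and P4hb. Syvn1 holds the element and passed in neither diet (log2 fold change 0.19 ± 0.15 in HFD mice, adjusted p = 0.504, and 0.24 ± 0.15 in ND mice, adjusted p = 0.353). The upstream sequences of BiP and calreticulin are given because the first carries the best known element of this kind and the second belongs to the gene with the smallest adjusted p. They read from 250 bases before the start to the last base before it, on the gene's strand, with the ERSE blocks in capitals.
Hspa5, chr2:34771840-34772089, plus strand: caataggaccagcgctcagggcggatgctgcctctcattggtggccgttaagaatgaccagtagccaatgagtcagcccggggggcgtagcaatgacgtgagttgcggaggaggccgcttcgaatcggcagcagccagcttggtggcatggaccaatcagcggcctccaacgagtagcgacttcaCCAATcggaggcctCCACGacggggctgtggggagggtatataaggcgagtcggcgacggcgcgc
Calr, chr8:84846932-84847181, minus strand: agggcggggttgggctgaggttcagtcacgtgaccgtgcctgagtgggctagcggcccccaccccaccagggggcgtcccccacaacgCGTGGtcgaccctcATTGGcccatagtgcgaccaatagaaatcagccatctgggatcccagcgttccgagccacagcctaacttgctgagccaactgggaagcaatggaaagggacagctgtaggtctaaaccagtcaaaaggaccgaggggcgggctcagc
In Calr the blocks appear as their complement, CGTGG before ATTGG, since the match is on the opposite strand.

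Among sensors and transcription factors few single genes passed with PMA, although their summed level was higher in every PMA-treated library than in any untreated one. Xbp1 made up most of that sum, averaging 462 and 483 CPM in HFD_PMA and ND_PMA, against 372 and 386 CPM in HFD_cont and ND_cont. Of 6 tested, 0 passed in HFD mice by edgeR (2 at an unadjusted p below 0.05, and 1 by DESeq2, Xbp1) and 1 rose in ND mice, Xbp1 (2 at an unadjusted p below 0.05, and 0 by DESeq2). Xbp1, the factor activated by IRE1 splicing (chromosome 11, 5520659 to 5525893), was measured at 452, 487, 435 and 472 CPM in HFD_PMA and 452, 529, 503 and 449 CPM in ND_PMA, against 359.8, 405, 361 and 361 CPM in HFD_cont and 385, 387, 445 and 329 CPM in ND_cont. Within each diet the ranges were separate, although ND_cont replicate 3 lay close to the lowest ND_PMA libraries (log2 fold change 0.31 ± 0.10 in HFD mice, adjusted p = 0.0514, and 0.32 ± 0.10 in ND mice, adjusted p = 0.0418). The ND call was lost under 14 of 18 other settings, with adjusted p up to 0.618, and the HFD value passed with DESeq2 (adjusted p = 0.0348) and with the compared groups fitted alone (0.0225). Atf4 (chromosome 15, 80255184 to 80257541), whose protein drives amino acid and stress genes, stood at 83.3, 102, 116 and 98.05 CPM in HFD_PMA and 64.5, 75.1, 73.2 and 57.97 CPM in ND_PMA, against 80.6, 81.2, 83.3 and 95.5 CPM in HFD_cont and 63.6, 52.5, 50.8 and 33.8 CPM in ND_cont. The PMA and untreated ranges overlapped in both diets (log2 fold change 0.23 ± 0.16 in HFD mice, adjusted p = 0.423, and 0.43 ± 0.16 in ND mice, adjusted p = 0.0843), and without ND_cont replicate 1 the ND value passed (log2 fold change 0.57, adjusted p = 0.0301). Ddit3 (chromosome 10, 127290774 to 127296288) had low values, 15.3, 13.8, 14.2 and 17.3 CPM in HFD_PMA and 18.7, 16.7, 12.2 and 10.3 CPM in ND_PMA, against 17.2, 14.1, 17.4 and 16.8 CPM in HFD_cont and 12.5, 14.1, 12.6 and 9.20 CPM in ND_cont. All groups overlapped (log2 fold change -0.11 ± 0.22 in HFD mice, adjusted p = 0.824, and 0.26 ± 0.22 in ND mice, adjusted p = 0.518). It shares 3.97% of its exon bases with Mars on the opposite strand, which had 25593 counts over all libraries against 2585 for Ddit3, so its level is uncertain. For the sensors the log2 fold changes in HFD and ND mice were 0.22 and 0.07 for Ern1 (IRE1), 0.50 and 0.02 for Eif2ak3 (PERK), and 0.07 and -0.08 for Atf6. Their adjusted p ran from 0.167 to 0.966. Another gene shares 8.05% of the Eif2ak3 exon bases.

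Neither feedback regulator passed with PMA in either diet by edgeR or DESeq2. At an unadjusted p below 0.05 it was 0 of 2 in HFD mice and 1 of 2 in ND mice, Trib3, with a negative value. Trib3, a pseudokinase that dampens the response, averaged 20.4 ± 1.79 CPM in HFD_PMA and 22.2 ± 3.69 CPM in ND_PMA, against 21.8 ± 3.39 CPM in HFD_cont and 28.7 ± 2.93 CPM in ND_cont (log2 fold change -0.09 ± 0.18 in HFD mice, adjusted p = 0.815, and -0.37 ± 0.18 in ND mice, adjusted p = 0.188). Ppp1r15a, the phosphatase subunit that restores translation, had log2 fold changes of 0.13 in HFD and 0.14 in ND mice.

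Among genes of ER-associated degradation, Edem1 and Edem2, which route glycoproteins to destruction, rose in both diets and the core of the ubiquitin ligase did not pass. Edem1 (chromosome 6, 108828641 to 108859356) was at 185, 175, 151 and 112 CPM in HFD_PMA and 118, 128, 128 and 158 CPM in ND_PMA, against 94.6, 95.8, 90.5 and 84.1 CPM in HFD_cont and 66.4, 71.7, 65.5 and 104 CPM in ND_cont. PMA-treated libraries were above untreated ones within each diet, and ND_cont replicate 4 was the highest of the untreated libraries (log2 fold change 0.77 ± 0.16 in HFD mice, adjusted p = 0.00332, and 0.79 ± 0.16 in ND mice, adjusted p = 0.00252). The ND call was lost with the ID prefix as covariate (adjusted p = 0.18). Edem2 averaged 77.2 ± 3.33 CPM in HFD_PMA and 71.7 ± 5.85 CPM in ND_PMA, against 54.98 ± 4.63 CPM in HFD_cont and 54.5 ± 7.28 CPM in ND_cont (log2 fold change 0.49 ± 0.12 in HFD mice, adjusted p = 0.0122, and 0.40 ± 0.12 in ND mice, adjusted p = 0.0381). Its ND call was lost under 15 of 18 other settings (adjusted p up to 0.212), and its HFD call without HFD_PMA replicate 2 (0.0537) or HFD_cont replicate 3 (0.0648). Herpud1, one of the highest genes here, did not pass (log2 fold change 0.08 ± 0.10 in HFD mice, adjusted p = 0.704, and 0.10 ± 0.10 in ND mice, adjusted p = 0.621). For Sel1l, the adaptor of the ligase, the log2 fold changes were 0.18 in HFD and 0.17 in ND mice, and for the ligase Syvn1 0.19 and 0.24.

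In the translocon, through which nascent proteins enter the ER, 2 of 3 genes rose in both diets. The channel subunit Sec61a1 (chromosome 6, 88503579 to 88518905) had 396, 433, 365 and 313 CPM in HFD_PMA and 322, 425, 424 and 385 CPM in ND_PMA, against 259, 249, 221 and 235 CPM in HFD_cont and 197, 236, 269 and 248 CPM in ND_cont. PMA-treated libraries were all above untreated ones (log2 fold change 0.64 ± 0.12 in HFD mice, adjusted p = 0.00162, and 0.71 ± 0.12 in ND mice, adjusted p = 0.000522), and the ND call was lost with the ID prefix as covariate (adjusted p = 0.064). A predicted gene on the opposite strand shares 8.16% of its exon bases and had 0 counts. Ssr1, of the translocon-associated complex (chromosome 13, 37966605 to 37994217), reached 477, 547, 531 and 446 CPM in HFD_PMA and 538, 412, 511 and 497 CPM in ND_PMA, against 326, 323, 291 and 285 CPM in HFD_cont and 331, 329.6, 250.1 and 277 CPM in ND_cont. Its treatment groups were separate, with ND_PMA replicate 2 the lowest PMA-treated library (log2 fold change 0.71 ± 0.12 in HFD mice, adjusted p = 0.00044, and 0.72 ± 0.12 in ND mice, adjusted p = 0.000249). The small subunit gene Sec61b ranged from 7.63 to 26.96 CPM over the 16 libraries and did not pass (log2 fold change 0.30 ± 0.36 in HFD mice, adjusted p = 0.684, and 0.58 ± 0.36 in ND mice, adjusted p = 0.339).

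**Figure D4:**
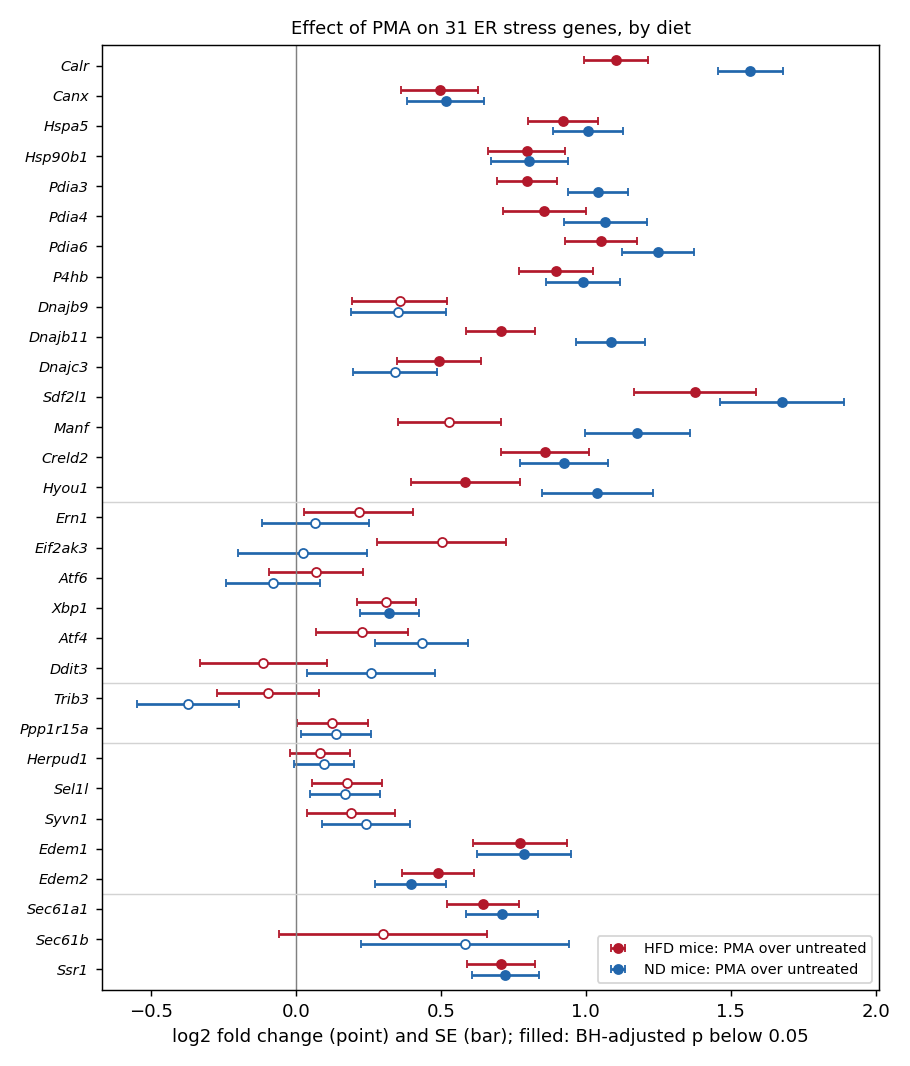
Log2 fold change of PMA over untreated (point) with its SE (bar) for the 31 tested genes, ordered by role from chaperones at the top to translocon genes at the bottom, in HFD mice (red) and ND mice (blue). Filled points passed at an adjusted p below 0.05; 17 are filled in HFD mice and 18 in ND mice, all to the right of 0.

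The PMA effect in HFD mice was then set against that in ND mice, by the interaction term. It was called for 0 of 31 genes by edgeR, and for 1 of all 17604 genes (0.00568%), and for 0 of 31 by DESeq2. At an unadjusted p below 0.05 there were 3, against 4.63% of all genes. By edgeR these were Calr (difference of log2 fold changes -0.46 ± 0.16, adjusted p = 0.815), Manf (-0.65 ± 0.25, adjusted p = 0.999) and Dnajb11 (-0.38 ± 0.17, adjusted p = 0.999). All 3 differences were negative, that is, the estimated PMA effect was smaller in HFD mice, but none was called. The ID prefix runs with PMA in ND mice and so enters these differences too. Among the 15 chaperones 13 had a negative difference by edgeR with TMM, with a median of -0.20. Over all genes the median was -0.04, and 44.9% were positive. For Hspa5 the difference was -0.09 ± 0.17 and for Hsp90b1 -0.01 ± 0.19, each within its SE of 0. By DESeq2 the differences of Canx (0.0153), Hsp90b1 (0.0255), Dnajb9 (0.0404) and Dnajc3 (0.191) were positive and those of the other chaperones negative. With RLE factors the median over all genes was -0.00984. Whether the chaperones differ from all genes was not tested.

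The second comparison asked how the diet altered these genes. In PMA-treated skin 0 of 31 genes were called in either direction by edgeR, where 0.943% of all genes were higher and 1.26% lower in HFD mice. At an unadjusted p below 0.05 it was 1, Atf4, where 15.5% of all genes had such a p in either direction. DESeq2 called the same 1 gene. Atf4 in HFD_PMA lay above ND_PMA in every library (99.6 ± 13.3 against 67.7 ± 7.94 CPM, SD, n = 4 each, log2 fold change 0.56 ± 0.16, adjusted p = 0.0714). It passed with DESeq2 (adjusted p = 0.0134), with a stricter low-count filter (0.0463) and without HFD_PMA replicate 1 (0.044), and its adjusted p ran from 0.0134 to 0.172 over all settings. The median over the 31 genes was -0.03, against -0.03 over all genes. The other 30 lay between -0.27 (Hyou1) and 0.35 (Manf). For Hspa5 the value was -0.07 ± 0.12, for Xbp1 -0.07 ± 0.10 and for Ddit3 0.06 ± 0.22. Sel1l was lower in every HFD_PMA library than in any ND_PMA library, at 196 ± 26.9 against 232 ± 4.40 CPM, but did not pass (log2 fold change -0.24 ± 0.12, adjusted p = 0.34).

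In untreated skin 3 of 31 genes rose with the high-fat diet, where 2.87% of all genes rose, and 0 fell, where 1.06% of all genes fell. DESeq2 called the same 3 genes higher and 0 lower. At an unadjusted p below 0.05 there were 3 higher and 3 lower, where 16.5% of all genes had such a p in either direction. Manf had 32.4 to 44.4 CPM in HFD_cont, above the 15.96 to 20.7 CPM of ND_cont in every library (log2 fold change 1.00 ± 0.18, adjusted p = 0.00322). Calr rose by 0.55 ± 0.11 on the log2 scale (adjusted p = 0.007) and Atf4 by 0.76 ± 0.16 (adjusted p = 0.00948), and neither had overlapping groups. HFD_cont replicate 1 is the only HFD_cont library with the ID prefix of the ND_cont libraries. With the prefix as covariate Manf remained called (log2 fold change 1.28, adjusted p = 0.0204), while Calr (0.66, 0.0758) and Atf4 (0.68, 0.258) were not. Within RHS libraries, with that lone HFD library assumed to vary like the other groups, Manf again passed (1.30, 0.0404) and Calr (0.68, 0.102) and Atf4 (0.71, 0.344) did not. The 3 genes with negative values and an unadjusted p below 0.05 were Eif2ak3 (log2 fold change -0.53 ± 0.22, adjusted p = 0.219), Ern1 (-0.40 ± 0.19, 0.282) and Trib3 (-0.39 ± 0.18, 0.258). Pdia3 was higher in every HFD_cont than in any ND_cont library but did not pass (0.15 ± 0.10, 0.504). Hspa5 had a log2 fold change of 0.01 ± 0.12 and Xbp1 of -0.06 ± 0.10. The diet comparisons share libraries with the PMA comparisons, so their values are not independent of them.

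**Figure D5:**
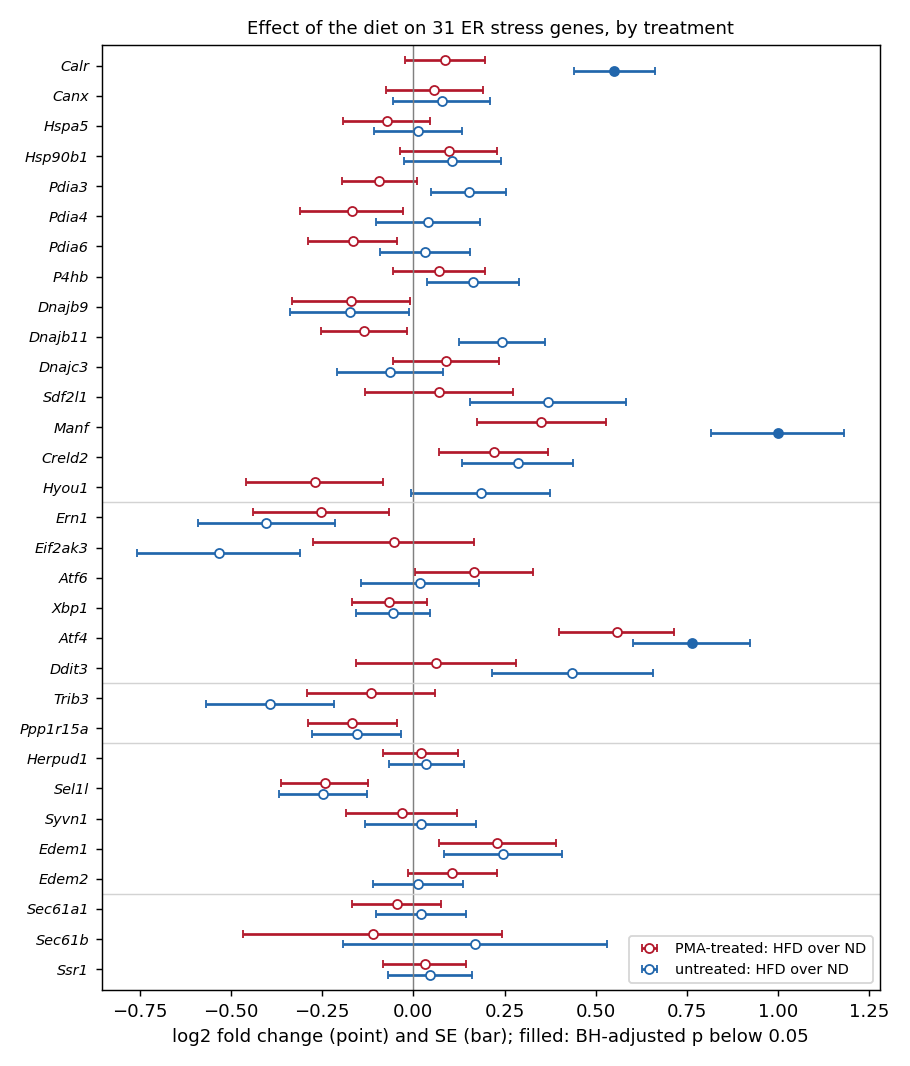
Log2 fold change of HFD over ND (point) with its SE (bar) for the 31 tested genes, ordered by role from chaperones at the top to translocon genes at the bottom, in PMA-treated (red) and untreated skin (blue). Filled points passed at an adjusted p below 0.05; these are Calr, Manf and Atf4 in untreated skin, and 0 genes in PMA-treated skin.

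Further genes of the same machinery, outside the 32, gave the setting. Of 26 tested additional chaperones and oxidoreductases, 4 rose with PMA in HFD mice and 5 in ND mice, and 0 fell by edgeR. Over all genes 7.34% rose in HFD and 8.96% in ND mice. At an unadjusted p below 0.05, 1 of the 26 was lower in HFD and 0 in ND mice. Their median log2 fold changes were 0.19 in HFD and 0.35 in ND mice. Ero1l, the oxidase that recharges disulfide isomerases, rose with PMA in HFD mice (1.06 ± 0.19, adjusted p = 0.000916). In PMA-treated skin it averaged 85.7 ± 19.3 CPM in HFD_PMA against 50.5 ± 5.98 CPM in ND_PMA (0.76 ± 0.19, adjusted p = 0.0338). Serpinh1, the collagen chaperone of fibroblasts, rose with PMA in HFD (0.67 ± 0.18, adjusted p = 0.0195) and ND mice (0.71 ± 0.18, adjusted p = 0.0125). It fell with the high-fat diet, at 192 ± 20.9 CPM in HFD_PMA against 319 ± 94.1 CPM in ND_PMA (-0.74 ± 0.18, adjusted p = 0.0364) and 120.2 ± 11.6 CPM in HFD_cont against 196 ± 51.4 CPM in ND_cont (-0.70 ± 0.18, adjusted p = 0.0356). Fibroblast markers lay lower in HFD mice too: 6 of 10 fell in PMA-treated and 6 of 10 in untreated skin. The shares of all genes that fell were 1.26% and 1.06%. With PMA, unlike Serpinh1, 0 of these 10 markers rose. In HFD mice 1 fell, where 4.6% of all genes fell, and in ND mice 2, where 3.99% fell. The summed level of the fibroblast markers was 4192 to 6651 CPM in HFD_PMA against 7193 to 10095 in ND_PMA. In untreated skin it was 6078 to 7177 in HFD_cont against 9357 to 11962 in ND_cont. Their part in the Serpinh1 values was not tested. Sdf2, a relative of Sdf2l1, rose with the diet in PMA-treated (0.63 ± 0.16, adjusted p = 0.0453) and untreated skin (0.65 ± 0.16, adjusted p = 0.029).

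Of 27 tested genes of the translocon, signal recognition and oligosaccharyl transfer, 8 rose in HFD and 10 in ND mice and 0 fell by edgeR (0 and 0 lower at an unadjusted p below 0.05). Ddost and Rpn1, subunits of the enzyme that adds sugar chains, had log2 fold changes of 0.79 ± 0.12 and 0.73 ± 0.10 in HFD mice (adjusted p = 0.000224 and 0.000144). In ND mice they were 0.96 ± 0.12 and 0.96 ± 0.11 (adjusted p = 1.81e-05 and 4.53e-06). Of 32 tested genes of ER-to-Golgi transport, 10 rose in HFD and 11 in ND mice and 0 fell by edgeR (0 and 0 lower at an unadjusted p below 0.05). Ergic1, of a membrane protein that cycles between ER and Golgi, rose in both diets (0.80 ± 0.12, adjusted p = 0.000209, and 0.76 ± 0.12, adjusted p = 0.000223). Of 25 further degradation genes, 1 rose in HFD and 2 in ND mice and 0 fell by edgeR (1 and 0 lower at an unadjusted p below 0.05). As a share of the list these counts are no higher than that of all genes that rose (7.34% in HFD and 8.96% in ND mice), and the same holds for the further sensors. Ube2j2, of a ubiquitin-conjugating enzyme, rose in both (0.58 ± 0.14, adjusted p = 0.0104, and 0.73 ± 0.14, adjusted p = 0.00188). Of 23 further sensors and transducers, 1 rose in HFD and 2 in ND mice and 0 fell by edgeR (1 and 0 lower at an unadjusted p below 0.05). Eif2s1, of the translation factor that PERK phosphorylates, rose in both (0.64 ± 0.15, adjusted p = 0.00616, and 0.78 ± 0.15, adjusted p = 0.00106).

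Atf4 itself did not pass with PMA, and many genes known as its targets did. Of 31 tested targets, 13 rose and 2 fell in HFD mice, where 7.34% of all genes rose and 4.6% fell. In ND mice 18 rose and 4 fell, where 8.96% of all genes rose and 3.99% fell. The medians were 0.37 and 0.63 in HFD and ND mice. Herpud1 and Trib3, whose promoters held the ATF4 element, passed with PMA in neither diet. Slc7a11, the cystine importer, averaged 85.8 ± 31.6 CPM in HFD_PMA and 15.9 ± 3.66 CPM in ND_PMA, against 14.03 ± 7.17 CPM in HFD_cont and 5.14 ± 3.12 CPM in ND_cont. It rose with PMA in HFD (2.61 ± 0.41, adjusted p = 0.000291) and ND mice (1.64 ± 0.42, adjusted p = 0.0129). In PMA-treated skin it rose with the diet (2.43 ± 0.40, adjusted p = 0.00378). It was the only 1 of the 31 targets higher there at an unadjusted p below 0.05, and 1 was lower. Over all genes 15.5% had such a p in either direction. The amino acid transporter gene Slc7a5 rose with PMA in both diets (1.34 ± 0.27, adjusted p = 0.00212, in HFD and 1.64 ± 0.27, adjusted p = 0.000331, in ND mice). In untreated skin 2 of the 31 targets rose with the diet, where 2.87% of all genes rose. One was Psat1 of serine synthesis (161 ± 16.2 CPM in HFD_cont against 103 ± 3.88 CPM in ND_cont, 0.64 ± 0.13, adjusted p = 0.00653). The other was the asparagine synthetase gene Asns (87.4 ± 8.93 against 64.2 ± 6.36 CPM, 0.45 ± 0.12, adjusted p = 0.0358).

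Markers of several other cell types moved with PMA and with the diet as well. Over all genes, 7.34% rose and 4.6% fell with PMA in HFD mice, and 8.96% rose and 3.99% fell in ND mice. With the diet 0.943% rose and 1.26% fell in PMA-treated skin, and 2.87% rose and 1.06% fell in untreated skin. Of 6 tested neutrophil markers out of 8, 6 rose with PMA in HFD and 4 in ND mice. Their summed level was 326 to 1271 CPM in HFD_PMA and 100.4 to 324 in ND_PMA, against 39.6 to 67.6 in HFD_cont and 28.02 to 54.9 in ND_cont. Of 9 macrophage markers 3 rose in HFD and 4 in ND mice, with sums of 374 to 683 and 609 to 993 CPM in HFD_PMA and ND_PMA. Untreated, the sums were 349 to 486 and 491 to 606 CPM in HFD_cont and ND_cont. Their part in the chaperone levels was not tested. Jchain, Mzb1 and Tnfrsf17, markers of plasma cells, which hold much ER, were at or near 0. Jchain was at 0 in all libraries of HFD_PMA, ND_PMA and HFD_cont, and Mzb1 and Tnfrsf17 averaged at most 0.486 CPM in any group. Some other genes of the list were higher. Group means ran from 79.3 to 105 CPM for Prdm1 and from 168 to 270 CPM for Txndc5. For Tnfrsf13b they were 5.74 to 15.4 CPM and for Irf4 5.24 to 11.7 CPM. Of 12 plasma and B cell markers 7 could be tested, and 1 rose with PMA in each diet, in ND mice Txndc5, also one of the additional chaperones and oxidoreductases. Their summed level, 1464 to 1853 CPM in HFD_PMA, 1322 to 1678 in ND_PMA, 1093 to 1335 in HFD_cont and 1059 to 1380.2 in ND_cont, was mostly Sdc1, which keratinocytes express as well. Suprabasal keratinocyte markers summed to 9222 to 11902 CPM in HFD_PMA and 6436 to 9076 in ND_PMA, against 11819.9 to 14765 in HFD_cont and 8139 to 8707 in ND_cont. Of these 8, 4 fell with PMA in HFD mice and 1 rose in ND mice, while with the diet 2 rose in PMA-treated and 4 in untreated skin. Hair shaft markers summed to 3069, 124, 70.4 and 170.3 CPM in HFD_PMA and 20.98 to 150.3 CPM in ND_PMA, against 2408, 1712, 92.5 and 638 CPM in HFD_cont and 29.7 to 69.1 CPM in ND_cont. The high HFD_PMA sum came from replicate 1 alone, and 0 of 9 of these markers were called with the diet by edgeR in either skin. Of 8 sebocyte markers 4 fell with PMA in HFD and 3 in ND mice. These summed to 2929 to 4106 CPM in HFD_PMA and 3793 to 5491 in ND_PMA, against 5841 to 7903 in HFD_cont and 7482 to 10229 in ND_cont. Of 7 adipocyte markers 4 fell with PMA in each diet, and they summed to 154 to 226 CPM in HFD_PMA and 227 to 395 in ND_PMA, against 275 to 454 in HFD_cont and 443 to 627 in ND_cont. Of 8 skeletal muscle markers 4 fell with PMA in HFD mice, with sums of 2671 to 3426 CPM in HFD_PMA against 2505 to 5877 in HFD_cont. Cartilage markers, 7 of them tested, had 4 lower with PMA in HFD mice and 1 in ND mice, and 4 lower in HFD_PMA than in ND_PMA. Their sums were 179 to 242 CPM in HFD_PMA and 297 to 463 in ND_PMA, against 268 to 335 in HFD_cont and 376 to 517 in ND_cont. Of 6 basal keratinocyte markers, 1 rose and 2 fell with PMA in HFD mice, and 2 rose and 2 fell in ND mice. With the diet 0 of them rose and 1 fell in PMA-treated skin, and 2 rose and 1 fell in untreated skin. Of 7 T cell markers 1 rose with PMA in ND mice and 0 were called in HFD mice. For the 7 endothelial and 5 melanocyte markers 0 were called in any comparison. The part of these lists in the values of the 32 genes was not tested.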

How the data were processed

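RNA from ear skin of 16 mice was measured by RNA sequencing. Per the labels' protocols, cDNA was made from 2 ng of total RNA by SMART-Seq2, which keeps neither strand nor molecular identifiers, so that PCR copies count as reads. The authors deposited a table of raw counts (whole numbers) for each gene and library, beside each gene's length in bases. Per the submitters' processing notes, the tools were STAR 2.3 and featureCounts 1.5, with GRCm38 and mm10 as builds, without roles. From these deposited counts, genes were kept by filterByExpr (minimum count 10, minimum total 15), libraries were scaled by TMM, and 4 group means were fitted over 16 libraries by the robust quasi-likelihood method of edgeR 4.0.16 in R 4.3.3. P-values were BH-adjusted over all 17604 genes tested, and an adjusted p below 0.05 was a call. SE is the absolute log2 fold change over the square root of F. Levels are CPM on TMM-scaled totals, per kb of the deposited length where genes are compared. Library totals were 7739487 to 15571389 counts, and intervals and floors cover counting error only.

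The procedure was tested on simulated data. The 32 genes, their roles, the further gene lists and the settings were chosen with earlier results of these data known. Values in each library are given for genes called in any contrast, up to 16 by smallest adjusted p, and for Hspa5, Xbp1, Atf4 and Ddit3; of each further list, up to 3 called genes per contrast, by absolute log2 fold change and with a mean CPM of at least 5 could be named, and part of them are. One gene of these lists is not reported here. Alternatives were DESeq2 1.42.0, other scalings and filters, the replicate number as a block, the library ID prefix as covariate, libraries of 1 prefix, the compared groups alone, and each library left out; the comparison within RHS libraries was added after the data were seen. The labels do not tie equal replicate numbers to a shared litter or day. Gene positions and exon overlaps are from GENCODE M21 (GRCm38), matched by gene ID for 32 of 32, and promoters from RefSeq (GRCm38.p6), found for 27 of 32. Without strand, reads of overlapping genes cannot be told apart, and 11 of the 32 share exon bases with another gene. The design text gives 4 mice per group, and each library was taken as 1 mouse.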

Additional observations from a re-analysis of the deposited data

Results flagged for a closer look

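In 10 of 124 groups of 4 libraries with counts, 1 library stood apart from the other 3, by a gap that chance gives in about 1 of 20 groups. ND_PMA replicate 2 was low for 3 chaperone genes: Canx at 416 CPM, against 688 to 728 in the other ND_PMA libraries, Hsp90b1 at 235 CPM, against 345 to 357, and Pdia3 at 934 CPM, against 1237 to 1272. In the same group Edem2 was low in replicate 1, at 63.0 CPM, against 73.8 to 76.0. HFD_PMA replicate 2 was high for Dnajc3 (205 CPM, against 145 to 152), and HFD_PMA replicate 1 for Sec61b (27.0 CPM, against 8.77 to 11.4). HFD_cont replicate 2 was high for Xbp1 (405 CPM, against 360 to 361). In ND_cont, replicate 3 was high for Hyou1 (38.4 CPM, against 22.5 to 23.8), and replicate 4 for Ern1 (38.0 CPM, against 26.4 to 27.4) and Edem1 (104 CPM, against 65.5 to 71.7).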

How the results depend on the processing

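Of the 5 counts of genes called among the 32, those for PMA stayed within 1.5 times under all settings but 1: in ND mice it was 11 of 18 with the library ID prefix as covariate, which rests on HFD_cont replicate 1 alone. Elsewhere it was 15 to 17 in ND and 14 to 19 in HFD mice, 14 of them within RHP libraries. Leaving out 1 library gave 16 to 18 in ND and 13 to 16 in HFD mice. The diet count in untreated skin was 1 with the prefix as covariate and 1 within RHS libraries, and 3 without any 1 library. In PMA-treated skin it was 1 with DESeq2, 1 with the stricter filter, and 0 to 1 without 1 library. The interaction count was 0 under every setting run. No call changed direction and 0 genes were called lower under any setting; 13 of 17 PMA calls in HFD mice, 11 of 18 in ND mice and 1 of 3 diet calls in untreated skin held in every setting run. Where calls were lost, the cause was not tested. Counts over all genes moved more: for the diet in PMA-treated skin 387 became 850 with DESeq2, 175 with the compared groups alone and 116 to 307 without 1 library. In untreated skin 691 became 1149 with DESeq2, 179 with the prefix as covariate, 132 within RHS libraries and 336 to 636 without 1 library. For PMA in ND mice 2279 became 453 with the prefix as covariate, in HFD mice 2101 became 1205 to 2139 without 1 library (1205 without HFD_PMA replicate 2), and the interaction's 1 became 22 with DESeq2 and 1 to 4 without 1 library, and 2 with the stricter filter, no filter, the block or the prefix. In ND mice 69.2% of PMA calls were higher with TMM, 58.5% with upper-quartile factors and 58.2% with library totals. For the diet in PMA-treated skin it was 42.9% with TMM and 52.6% with RLE factors. With the replicate number as a block the counts were 17 for PMA in HFD mice and 17 in ND mice, 0 for the diet in PMA-treated and 3 in untreated skin, and 0 for the interaction. Same-numbered libraries correlated at -0.067 to 0.202 (over 0.1 in 2 of 24 pairs), and 8 of 16 libraries correlated best with their own number, a hint from the data and not from the design. In HFD mice the same-numbered PMA-treated and untreated libraries correlated at 0.202, 0.0138, 0.116 and 0.0791. Since not every pair was over 0.1 and the labels tie the numbers to nothing shared, they were not used as pairs. Genes at a few CPM rest on few counts.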

Other observations

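Within a group, the same libraries tended to be at the top or bottom for many of the 31 measured genes. HFD_PMA replicate 2 was the highest of its group for 18 and HFD_PMA replicate 4 the lowest for 16. In HFD_cont, replicate 2 was the highest for 15 and replicate 4 the lowest for 14. In ND_PMA, replicate 2 was the highest for 13 and the lowest for 7, and in ND_cont no replicate was the highest for more than 11.

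Some chaperone genes of the cytosol and of mitochondria rose with PMA as well. Of 23 tested heat shock and chaperonin genes, which include Hspd1, Hspe1 and Hspa9 of the mitochondrial matrix, 10 rose and 1 fell in HFD mice by edgeR. In ND mice 11 rose and 0 fell. Over all genes 7.34% rose and 4.6% fell in HFD mice, and 8.96% rose and 3.99% fell in ND mice. At an unadjusted p below 0.05, 2 of the 23 were lower in HFD and 0 in ND mice. Their median log2 fold changes were 0.36 in HFD and 0.39 in ND mice. The mitochondrial Hspd1 and Hspa9 are among those that rose in both diets. Hspa8, the constitutive Hsp70 of the cytosol, had log2 fold changes of 0.71 ± 0.10 in HFD (adjusted p = 0.000151) and 0.82 ± 0.10 in ND mice (adjusted p = 1.81e-05). For Hsp90aa1, an Hsp90 gene, they were 0.89 ± 0.14 (adjusted p = 0.000331) and 0.77 ± 0.14 (adjusted p = 0.000824). Cct5, a subunit of the chaperonin that folds actin and tubulin, had 0.64 ± 0.11 (adjusted p = 0.000445) and 0.87 ± 0.11 (adjusted p = 1.3e-05).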
